A study of Mus musculus with 20 samples.

Results

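The 10 genes described here, Acta2, Tagln, Des, Vim, Lrat, Reln, Lum, Dcn, Bgn and Rgs5, are markers of hepatic stellate cells, of the myofibroblasts they can become, and of related perivascular cells. They were taken by symbol from a liver RNA-seq count table of 46095 gene symbols, which held all 10, and all 10 passed the low-count filter that left 14440 genes for testing. The study compared livers of 20 mice, 5 in each of 4 groups. WT chow and WT NASH were wild-type mice kept for 24 weeks on chow or on the diet that the labels name after non-alcoholic steatohepatitis (NASH). KO chow and KO NASH were mice with a liver-specific deletion of Pck1, the cytosolic phosphoenolpyruvate carboxykinase of gluconeogenesis, on the same diets for the same time. All mice were 31 to 33 weeks old. The driver of the deletion, the liver cells it reached and the make-up of the diet were not given in the sources used here. Such a design addresses how diet, deletion and their combination bear on the liver transcriptome.

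Stellate cells lie between the sinusoidal endothelium and the hepatocytes and store vitamin A as retinyl esters, which Lrat (lecithin retinol acyltransferase) makes. In injured liver they can lose this store and become contractile, matrix-producing myofibroblasts, the main source of scar collagen in many forms of liver fibrosis. Acta2 (smooth muscle actin alpha) and Tagln (transgelin) mark the contractile state, but vascular smooth muscle expresses them too. Vim (vimentin) is found in most mesenchymal cells and in leukocytes, and Dcn (decorin), Lum (lumican) and Bgn (biglycan) are small leucine-rich proteoglycans that bind collagen or growth factors outside the cell. The RNA came from whole liver, so fewer cells of a type and less RNA per cell cannot be told apart in any value below.

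The libraries held 9958935 to 20601955 counts. Levels are CPM, counts relative to the TMM-scaled library size, a scaling that corrects for differences in RNA composition. Differences between groups are log2 fold changes from the fit and are called log2 differences below. On chow WT mice had 3573 ± 1139 CPM of Pck1 and KO mice 626 ± 175 CPM, and on the NASH diet they had 2290 ± 511 and 445 ± 112 CPM (mean ± SD, n = 5 each), and every KO library lay below every WT library of the same diet. The summed level of 6 hepatocyte genes was 53679 to 122879 CPM, so that the labelled tissue, liver, shows its defining genes. In 6 libraries the expression of long genes was low relative to short ones: the slope of log2 expression on log2 transcript length was -0.33 to -0.24, against 0.0025 to 0.19 in the other 14. They comprised replicates 3, 4 and 5 of WT chow, replicate 4 of WT NASH and replicates 4 and 5 of KO chow, with none in KO NASH. The sex of the mice was read from Y-linked and Xist counts. On chow all 5 WT mice and 3 KO mice were male, and on the NASH diet 1 WT mouse (replicate 4) and 4 KO mice were. The others were female. Sex and diet can therefore hardly be told apart in WT mice, and KO NASH and WT NASH are unequal in sex as well. With sex as a term edgeR called 1.11% of all genes tested in WT NASH versus WT chow and 4.33% in KO NASH versus WT NASH, against 5.93% and 9.65% without it.

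**Figure D1:**
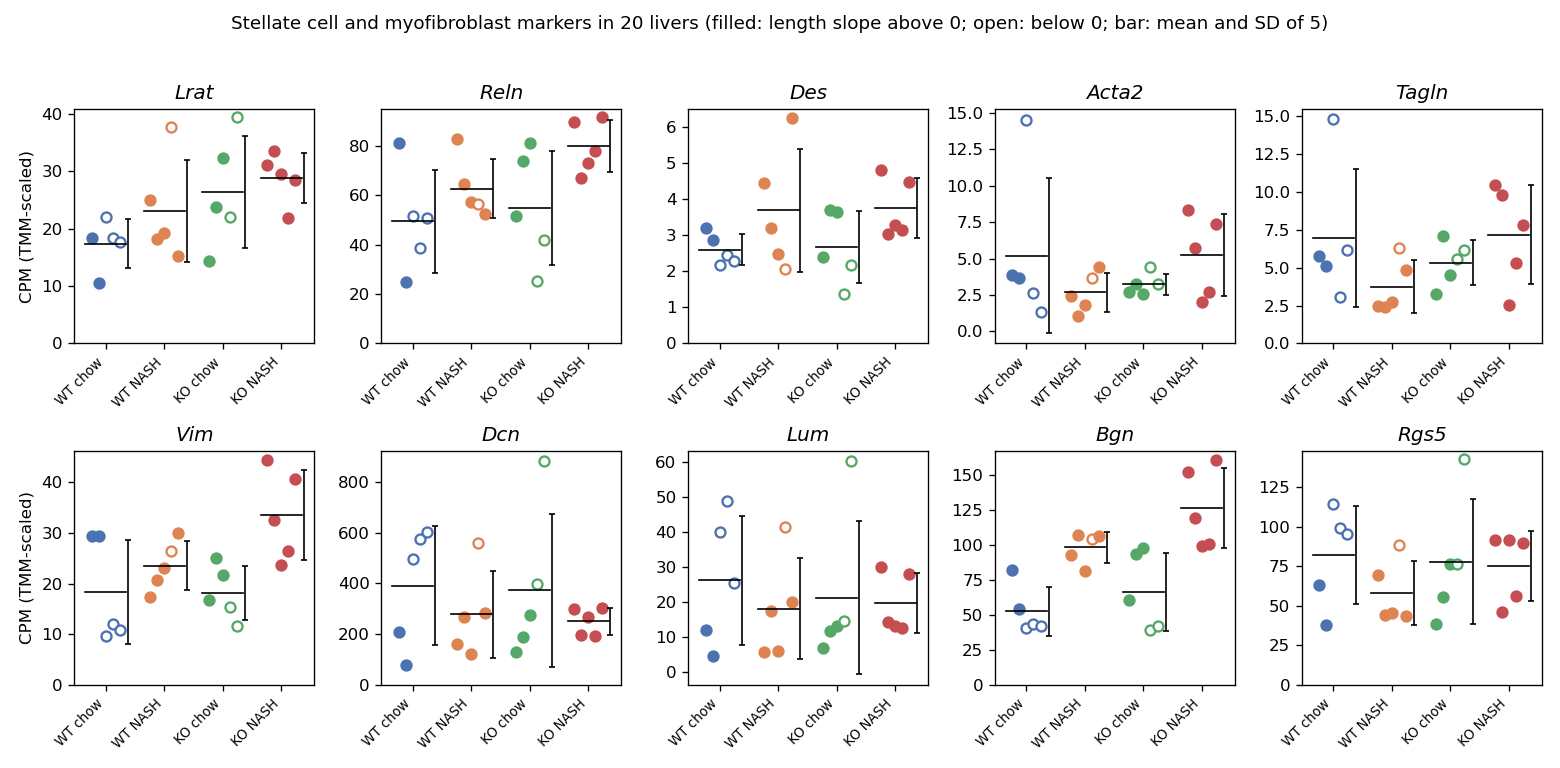
Level of each of the 10 genes in each of 20 livers (CPM, linear axes that differ between panels). Open points are the 6 libraries with a length slope below 0, horizontal lines are group means and vertical bars the SD of 5 mice; some SD bars reach below 0. Within each group that has them, open points lie at the top for Dcn, Lum and Rgs5 and at the bottom for Des.

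Per length of transcript, Dcn was the most abundant of the 10. Its mean over all 20 livers was 184 FPKM (CPM per kilobase of the longest coding transcript), and it lay above Bgn in 20 of 20 libraries. Bgn followed at 35.7 FPKM, Rgs5 (a regulator of G protein signalling that marks pericytes) at 17.9, Vim at 10.6 and Lum at 8.71. Reln, the secreted glycoprotein reelin that stellate cells express in liver, was at 5.27 FPKM and Lrat at 4.48. The contractile markers were low, Tagln at 3.64 FPKM and Acta2 at 2.01, and Des, the muscle-type intermediate filament desmin, was lowest at 1.05 FPKM. Neighbours in this order were not always apart. Lum exceeded Reln in 11 of 20 libraries and Lrat exceeded Tagln in 14 of 20, whereas Tagln exceeded Acta2 in 20 of 20. Acta2 had 18 to 196 counts in a library and Des 14 to 113, against 1423 to 14502 for Dcn. Precision did not follow the level: the biological coefficient of variation from the fit was 31.7% for Des, 55.3% for Acta2, 57.3% for Dcn and 67.4% for Lum.

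The genes lie on 8 chromosomes of GRCm38, and all are annotated as protein-coding. Dcn (chr10:97479609-97518143) and Lum (chr10:97565128-97572703) are neighbours on the plus strand, with 46984 bases from the end of Dcn to the start of Lum. Bgn (chrX:73483602-73495933, plus strand) is X-linked. The groups are unequal in sex, and the part of X linkage in the Bgn values was not tested. Rgs5 (chr1:169655501-169695813, plus strand) and Des (chr1:75360329-75368579, plus strand) are far apart on chromosome 1. Acta2 lies at chr19:34241090-34255590, Tagln at chr9:45929619-45936058, Lrat at chr3:82892579-82903973 and Reln at chr5:21884454-22344702, all on the minus strand, and Vim at chr2:13573927-13582826 on the plus strand.

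Before the groups were compared, the members were compared between the 2 kinds of library within a group. Dcn was at 497, 574 and 601 CPM in the 3 WT chow libraries with a length slope below 0 and at 209 and 77.1 CPM in the other pair. In KO chow it was at 397 and 881 CPM against 128, 187 and 274 CPM, and the single such library of WT NASH had 559 CPM against 122 to 285 CPM. Dcn, Lum and Rgs5 were higher in these libraries without overlap in all 3 groups that have them, and Des was lower without overlap in all 3. For Rgs5 in KO chow the margin was small, 76.6 CPM in the lower of these libraries and 76.2 CPM in the highest of the others. Vim and Bgn were lower without overlap in WT chow and KO chow, but not in WT NASH. In WT chow Vim was at 9.75, 12.1 and 10.9 CPM in these libraries and at 29.4 CPM in both others.

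The direction of this gap ran with base composition. The 4 members with the lowest GC content in their longest coding transcript, Rgs5 (41.1%), Lum (41.9%), Lrat (42.0%) and Dcn (42.8%), were higher on average in these libraries in both chow groups. The 4 with the highest, Des (56.5%), Vim (53.9%), Tagln (52.5%) and Bgn (52.5%), were lower, except Tagln. Across the 10 genes, which share these libraries, the correlation of GC content with the log2 ratio was -0.78 in WT chow and -0.83 in KO chow (Pearson's r; Spearman's rho -0.77 and -0.73), given as a description. Over all expressed genes the same tendency was weaker: genes under 45% GC had a median log2 ratio of 0.30 in WT chow and those at 50% or more -0.29, with 63.1% and 39.4% of genes higher. The part of GC content in the gap was not tested.

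The beginnings of 4 coding sequences show the contrast in composition, with every G and C in capitals. Each run holds 120 bases of the longest coding transcript (GENCODE M21) from the start codon, and G and C make up 54 in Dcn, 54 in Lum, 67 in Bgn and 74 in Vim.
Dcn: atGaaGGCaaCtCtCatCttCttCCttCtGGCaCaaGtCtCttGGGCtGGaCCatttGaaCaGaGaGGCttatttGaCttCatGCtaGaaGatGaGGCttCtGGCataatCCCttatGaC
Lum: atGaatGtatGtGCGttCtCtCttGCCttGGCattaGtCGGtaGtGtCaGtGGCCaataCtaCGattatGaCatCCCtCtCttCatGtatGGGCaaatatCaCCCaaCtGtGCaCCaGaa
Bgn: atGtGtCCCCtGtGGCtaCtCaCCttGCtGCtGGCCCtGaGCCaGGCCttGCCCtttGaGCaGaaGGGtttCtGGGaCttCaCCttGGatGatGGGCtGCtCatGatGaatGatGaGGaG
Vim: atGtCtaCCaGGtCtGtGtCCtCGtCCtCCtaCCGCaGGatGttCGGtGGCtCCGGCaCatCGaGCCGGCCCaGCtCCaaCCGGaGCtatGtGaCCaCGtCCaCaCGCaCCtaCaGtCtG
Dcn and Lum, the pair with fewer G and C, are those that were high in the libraries with a length slope below 0, and Bgn and Vim are those that were low there in both chow groups. They do not stand for every member. In the same stretch Rgs5 held 62, Tagln 64, Lrat 65 and Acta2 71, and the means of these were higher there in both chow groups. Des held 84 and Reln 86, and their means were lower there.

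**Figure D2:**
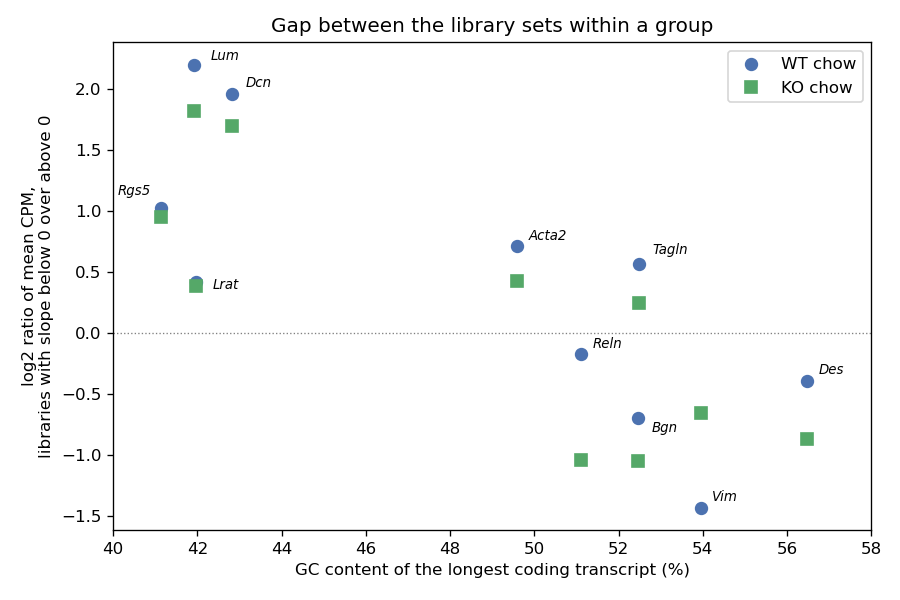
GC content of the longest coding transcript (%) against the log2 ratio of mean CPM between libraries with a length slope below 0 and above 0, within WT chow (circles) and KO chow (squares), for the 10 genes. Genes near 42% GC lie above 0 in both groups, and Des, Vim, Bgn and Reln, at over 51%, lie below.

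The proteoglycans are given first, since Bgn was the 1 member called by edgeR in the fit of 4 group means to all 20 libraries. In that fit (edgeR's quasi-likelihood test, Benjamini-Hochberg adjusted p under 0.05) 1 of 10 members was called in WT NASH versus WT chow, while 5.93% of all genes tested were called. No member was called for the deletion on chow (KO chow versus WT chow, where 5.53% of all genes were), for the deletion on the NASH diet (9.65%), for the diet in KO mice (3.29%) or in the interaction (0.139%), the effect of the deletion on the NASH diet minus its effect on chow. At an unadjusted p under 0.05 the members counted 2, 1, 1, 2 and 2 in that order, against 22.1%, 19.4%, 25.6%, 22.2% and 8.25% of all genes. DESeq2 called 1, 0, 0, 1 and 0 members, beside 10.4%, 9.62%, 15.2%, 9.02% and 1.31% of all genes. voom with quality weights called 6, 4, 1, 2 and 1 members, beside 40.6%, 40.4%, 23.8%, 12.7% and 13.5% of all genes, so its 4 of 10 for the deletion on chow is the share over all genes. In the 14 libraries with a length slope above 0 edgeR called 0, 0, 1, 0 and 0 members, beside 4.88%, 5.33%, 20.3%, 7.69% and 0.518% of all genes.

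Biglycan rose on the NASH diet in WT liver. Bgn was at 82.4, 54.8, 41.0, 43.8 and 42.3 CPM in the WT chow mice and at 92.9, 108, 81.4, 105 and 106 CPM in the WT NASH mice. The groups overlapped only through the highest chow mouse and the lowest NASH mouse. The means were 52.8 ± 17.4 and 98.6 ± 11.2 CPM (SD, n = 5 each), a log2 difference of 0.90 (SE 0.264, edgeR adjusted p = 0.0478). The male of WT NASH, replicate 4, lay within the range of the 4 females. With the 14 libraries of length slope above 0, which leave 2 WT chow mice, the log2 difference was 0.51 (edgeR adjusted p = 0.257), and with sex as a term it was 0.91 (edgeR adjusted p = 0.216). The call was lost, at an edgeR adjusted p of 0.0529 to 0.117, when WT chow replicate 2, 3, 4 or 5, WT NASH replicate 1, 2, 3 or 5, KO chow replicate 1 or any 1 KO NASH library was left out. The summed macrophage genes were at 251 to 928 CPM in WT chow and 354 to 717 CPM in WT NASH, and the summed T and B cell genes at 5.21 to 11.1 and 8.46 to 17.9 CPM. Of 7 macrophage genes 3 had a positive and 4 a negative log2 difference, with a median of -0.06, and edgeR called only Cd68, at 1.01 (adjusted p = 0.0380). Of 7 T and B cell genes 5 were positive, and Cd3e, a T cell receptor subunit, was called at 2.11 (edgeR adjusted p = 0.0188). Once sex was a term, neither gene passed the threshold (edgeR adjusted p = 0.214 and 0.294). Their part in the Bgn difference was not tested.

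In KO liver Bgn was at 60.8, 93.8, 97.8, 39.4 and 41.9 CPM on chow and at 152, 119.9, 99.6, 101 and 161 CPM on the NASH diet. Every NASH mouse lay above every chow mouse, a separation that 8.5% of all genes showed in 1 direction or the other. The log2 difference was 0.93 (SE 0.263, edgeR adjusted p = 0.0576), close to the WT value but not called. It was called when WT chow replicate 1, WT NASH replicate 4, KO chow replicate 2 or KO chow replicate 3 was left out (edgeR adjusted p = 0.0433, 0.0464, 0.0432 and 0.0277). With the 14 libraries it was 0.59 (edgeR adjusted p = 0.0992). edgeR did not call Bgn for the deletion on either diet, with log2 differences of 0.34 on chow (95% interval -0.21 to 0.88) and 0.36 on the NASH diet (-0.18 to 0.91), and the interaction was 0.03 (-0.74 to 0.80). On chow voom called it, at 0.67 (adjusted p = 0.0242). The highest group mean was that of KO NASH at 127 ± 28.7 CPM, 2.40 times the WT chow mean.

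Decorin and lumican differed more between mice of a group than between groups. Dcn in WT NASH was at 161, 269.6, 122, 559 and 285 CPM, and in KO NASH at 297, 196, 269, 194 and 302 CPM. Lum was at 12.1, 4.50, 40.1, 48.8 and 25.5 CPM in WT chow and 6.76, 11.8, 13.1, 14.6 and 60.2 CPM in KO chow. On the NASH diet it was at 5.81, 17.6, 6.05, 41.3 and 20.1 CPM in WT mice and at 30.0, 14.3, 13.2, 12.7 and 28.0 CPM in KO mice. The lowest and the highest library differed 11.4-fold for Dcn and 13.4-fold for Lum over all 20. For Lum in WT NASH versus WT chow the 95% interval ran from -1.87 to 0.80 on the log2 scale around -0.54 (edgeR adjusted p = 0.652). With the 14 libraries the sign turned, to 0.59 for Lum and from -0.49 to 0.56 for Dcn (edgeR adjusted p = 0.587 and 0.477). For KO NASH versus KO chow, Lum was at -0.11 with 20 libraries and 0.89 with 14 (edgeR adjusted p = 0.254). voom called Dcn and Lum lower in WT NASH than in WT chow (adjusted p = 0.0426 and 0.0474). It also called both lower in KO chow than in WT chow (adjusted p = 0.0344 and 0.0353). With the GC slope as a term edgeR called Lum higher in KO NASH than in WT NASH (adjusted p = 0.00869) and than in KO chow (adjusted p = 0.0317).

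Of the 9 other small leucine-rich proteoglycans that were listed, 7 were tested. Prelp, which anchors basement membranes to connective tissue, rose in WT NASH versus WT chow, from 23.9 ± 9.50 to 53.2 ± 11.4 CPM (log2 difference 1.15, SE 0.322, edgeR adjusted p = 0.0390). Once sex was a term it was not called (1.06, edgeR adjusted p = 0.253), and the call was also lost in 7 of 20 fits that left out 1 library. Prelp does not stand for the list, whose median in this comparison was 0.02, with 4 positive and 3 negative. For the deletion the list had a median log2 difference of -0.54 on chow and -0.15 on the NASH diet, and for the diet in KO mice 0.40. edgeR called none in these 3 comparisons, where 2, 0 and 2 passed an unadjusted p of 0.05, and DESeq2 called 1, 0 and 2 and voom 4, 0 and 1. The median of all genes was between -0.03 and 0.01 in the 5 comparisons.

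The contractile markers Acta2 and Tagln had their highest means in KO NASH and WT chow and their lowest in WT NASH, and edgeR called neither in the fit of group means to 20 libraries. voom called Tagln in WT NASH versus WT chow (log2 difference -1.35, adjusted p = 0.0294), and edgeR with the GC slope as a term called it in KO NASH versus WT NASH (adjusted p = 0.0374). Acta2 was at 3.85, 3.68, 14.5, 2.66 and 1.32 CPM in WT chow and at 2.45, 1.07, 1.82, 3.68 and 4.39 CPM in WT NASH. It was at 2.73, 3.22, 2.57, 4.43 and 3.22 CPM in KO chow and at 8.36, 5.73, 1.99, 2.68 and 7.35 CPM in KO NASH. In KO NASH 3 mice were above every WT NASH mouse and the others lay within the WT NASH range. The 3 include replicates 1 and 5, whose counts were closer than those of any other pair within a group. The same pair held the highest KO NASH values of Acta2, Bgn, Vim, Lum, Dcn, Reln and Des, but not of Tagln, Lrat and Rgs5. Tagln was at 5.75, 5.09, 14.8, 3.04 and 6.17 CPM in WT chow and at 2.45, 2.37, 2.72, 6.33 and 4.84 CPM in WT NASH. It was at 3.29, 7.08, 4.50, 5.59 and 6.20 CPM in KO chow and at 10.5, 9.79, 2.55, 5.32 and 7.80 CPM in KO NASH. WT chow replicate 3 held the highest value of both genes among all 20 mice.

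For KO NASH versus WT NASH the log2 difference was 0.98 for Acta2 (SE 0.526, edgeR adjusted p = 0.247) and 0.97 for Tagln (SE 0.415, edgeR adjusted p = 0.143). With the 14 libraries Tagln was called, at 1.22 (SE 0.371, edgeR adjusted p = 0.0322), while Acta2 was not, at 1.11 (SE 0.428, edgeR adjusted p = 0.0791). Within males, 4 against 1, the values were 0.50 for Acta2 and 0.08 for Tagln, and within females, 1 against 4, they were 1.26 and 1.68. None of these 4 was called (edgeR adjusted p of 0.772, 0.955, 0.699 and 0.262). The WT NASH male, replicate 4, was also the only WT NASH library with a length slope below 0, and KO NASH had none. In the male values sex and kind of library therefore cannot be told apart. The interaction was 1.66 for Acta2 (SE 0.740, edgeR adjusted p = 0.546) and 1.35 for Tagln (SE 0.581, edgeR adjusted p = 0.523). Without WT chow replicate 3 it was 0.80 and 0.87 (edgeR adjusted p = 0.852 and 0.785). The diet difference of Acta2 in WT liver moved from -0.96 to -0.12 without that mouse, and the difference of KO chow from WT chow from -0.67 to 0.18.

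The Acta2 promoter is shown because smooth muscle genes are commonly controlled through CArG boxes, the sites of serum response factor. No full CArG box was found in the 250 bases before the RefSeq start (GRCm38.p6), but 2 sites with 1 core base off were, 84 and 34 bases before that start on the minus strand. They are printed in capitals with 10 bases on either side. In GENCODE M21, where the gene starts further upstream, both lie within the annotated first exon.
chr19:34255438-34255467: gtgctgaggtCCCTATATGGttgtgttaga
chr19:34255388-34255417: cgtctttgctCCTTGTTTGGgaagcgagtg
Of 32851 RefSeq promoters of this length, 1.47% held a full CArG box on either strand and 8.59% held 1 with at most 1 core base off. Of the 7 members in that table, Acta2 and Lrat held such a site. Tagln, Lum and Dcn were the other 3 members.

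**Figure D3:**
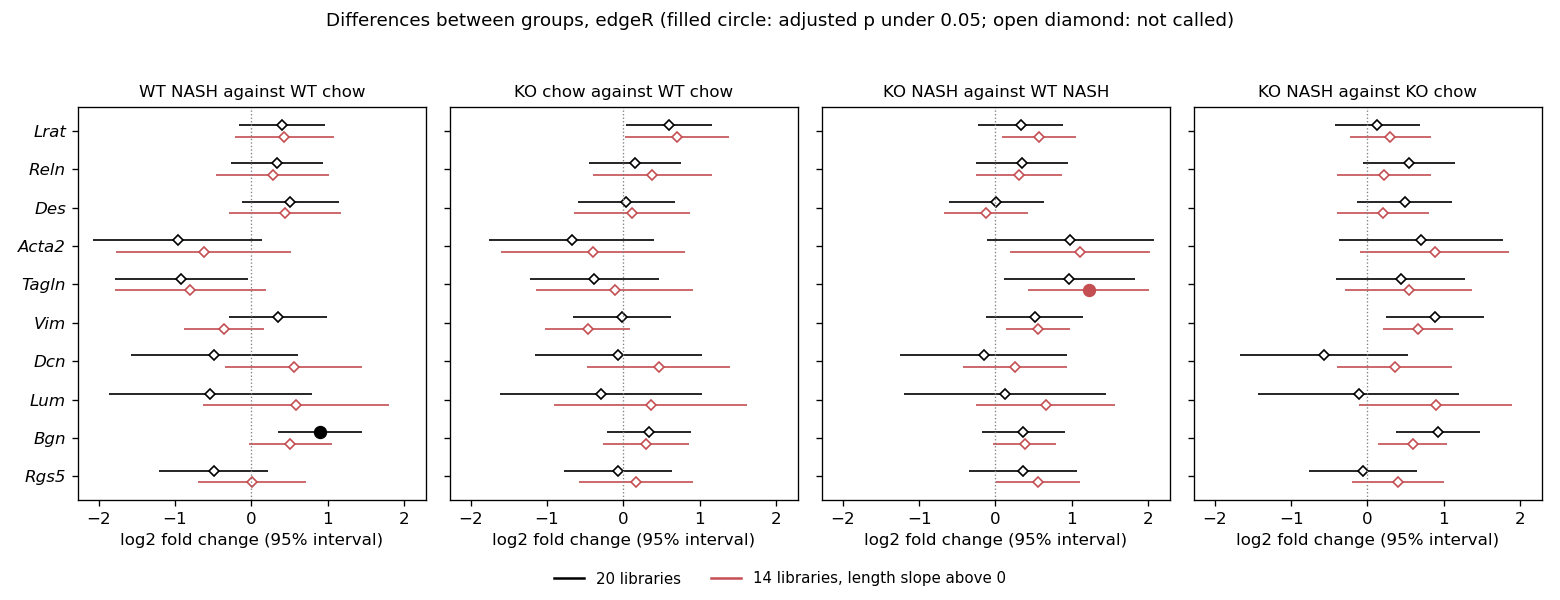
Log2 fold changes of the 10 genes with 95% intervals in 4 comparisons, from the fit of all 20 libraries (black) and from the 14 with a length slope above 0 (red). Filled circles are called at an adjusted p under 0.05, which holds for Bgn in WT NASH versus WT chow with 20 libraries and Tagln in KO NASH versus WT NASH with 14.

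Of 10 other contractile and smooth muscle genes tested, 2 were higher in KO NASH than in WT NASH and none was lower. Over all genes tested edgeR called 9.65% in this comparison. Tpm2, a tropomyosin of muscle thin filaments, was at 15.2 ± 10.6 CPM in KO NASH and 3.85 ± 1.84 CPM in WT NASH (log2 difference 1.95, SE 0.493, edgeR adjusted p = 0.0181). Its relative Tpm1, named after its values were seen, was the other, at 47.0 ± 11.4 and 24.8 ± 3.33 CPM. Tpm1 was also called in KO chow versus WT chow (log2 difference 0.89, SE 0.245, edgeR adjusted p = 0.0390), a call lost in 8 of 20 fits that left out 1 library. With sex as a term Tpm2 was still called between KO NASH and WT NASH (2.37, edgeR adjusted p = 0.0191), and Tpm1 was not (0.80, edgeR adjusted p = 0.0995). The median log2 difference of the 10 was 0.91 for KO NASH versus WT NASH and 0.84 for KO NASH versus KO chow. For the diet edgeR called no gene of this list in WT or KO mice, where 1 and 5 passed an unadjusted p of 0.05, and DESeq2 called 0 and 2 and voom 2 and 1.

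Vimentin was highest in KO NASH. Vim was at 17.4, 20.8, 23.1, 26.3 and 29.9 CPM in WT NASH. The KO mice had 16.7, 25.1, 21.7, 15.4 and 11.5 CPM on chow and 44.3, 32.6, 23.7, 26.4 and 40.5 CPM on the NASH diet. KO chow replicate 2, at 25.1 CPM, and KO NASH replicate 3, at 23.7 CPM, made the KO groups overlap. Against KO chow the log2 difference was 0.89 (SE 0.309, edgeR adjusted p = 0.106) with 20 libraries and 0.66 (edgeR adjusted p = 0.0735) with 14. Against WT NASH it was 0.51 (SE 0.308, edgeR adjusted p = 0.308) with 20 and 0.55 (edgeR adjusted p = 0.0581) with 14. voom called Vim higher in KO NASH than in KO chow (adjusted p = 0.0484) and in WT NASH than in WT chow (adjusted p = 0.0182). Leukocytes also express Vim, and the summed level of 7 leukocyte genes was 63.8 to 89.4 CPM in KO NASH against 77.2 to 300.4 CPM in WT NASH and 67.8 to 411 CPM in KO chow. edgeR called no gene of that list in these 2 comparisons, at median log2 differences of -0.57 and -1.14. At an unadjusted p under 0.05 there were 4 and 3, DESeq2 called 1 and 0, and voom 2 and 0. The part of leukocytes in the Vim values was not tested.

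Among the markers of quiescent stellate cells, Lrat was lowest in WT chow. It was at 18.5, 10.5, 22.1, 18.3 and 17.7 CPM there, 14.4, 23.8, 32.4, 22.1 and 39.4 in KO chow and 31.1, 33.6, 29.6, 21.9 and 28.5 in KO NASH. In WT NASH 4 mice had 15.2 to 25.0 CPM and replicate 4 had 37.8 CPM. All groups overlapped. The log2 difference of KO chow versus WT chow was 0.60 (SE 0.270, edgeR adjusted p = 0.222) with 20 libraries and 0.71 (edgeR adjusted p = 0.212) with 14. For KO NASH versus WT NASH it was 0.33 (SE 0.269, edgeR adjusted p = 0.475) with 20 and 0.57 (edgeR adjusted p = 0.0901) with 14. With the length slope or the GC slope as a term edgeR called Lrat higher in KO chow than in WT chow (lowest adjusted p = 0.0433). voom called it higher in KO NASH than in WT NASH (adjusted p = 0.0255). No loss of Lrat on the NASH diet was measured: the 95% interval of the diet difference was -0.16 to 0.97 in WT and -0.43 to 0.69 in KO.

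edgeR called Reln, Des and Rgs5 in no comparison in the fit of group means. Reln was at 49.5 ± 20.9 CPM in WT chow, 54.8 ± 23.0 in KO chow and 79.8 ± 10.5 in KO NASH, and the WT NASH mice had 82.6, 64.4, 57.1, 56.5 and 52.4 CPM. Its largest log2 difference was 0.54 for KO NASH versus KO chow (SE 0.290, edgeR adjusted p = 0.270). The 5 KO NASH mice had 67.0 to 91.5 CPM, while the chow groups ran from 24.8 to 81.3 CPM. Des was at 2.60 ± 0.423, 2.67 ± 1.00, 3.69 ± 1.70 and 3.76 ± 0.830 CPM in WT chow, KO chow, WT NASH and KO NASH. Its diet difference was 0.51 in WT and 0.49 in KO (edgeR adjusted p = 0.330 and 0.334), and the KO minus WT difference was 0.04 on chow and 0.01 on the NASH diet. On either diet the 95% interval of that difference lay within -0.61 to 0.68. Rgs5 was at 82.0 ± 31.0, 58.2 ± 20.1, 77.8 ± 39.5 and 74.8 ± 22.1 CPM in WT chow, WT NASH, KO chow and KO NASH. voom called it in WT NASH versus WT chow (log2 difference -0.95, adjusted p = 0.0108), in KO chow versus WT chow (-0.83, adjusted p = 0.0366) and in the interaction (1.37, adjusted p = 0.0282), and edgeR with the GC slope as a term in KO NASH versus WT NASH (0.86, adjusted p = 0.0420). Its log2 difference of WT NASH from WT chow was -0.49 with 20 libraries and 0.01 with 14 (edgeR adjusted p = 0.403 and 0.989).

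Over the 10 members, log2 differences for the diet were positive in 5 in WT mice and in 7 in KO mice, and those for the deletion in 4 on chow and in 9 on the NASH diet. In that order the medians were -0.07, 0.46, -0.05 and 0.36, while those of all genes were 0.01, -0.02, 0.00 and 0.00. For the deletion on the NASH diet the 1 negative member was Dcn, at -0.15. The comparisons share groups, so these counts are not independent of each other. With the 14 libraries the 4 medians were 0.36, 0.47, 0.24 and 0.56, all above 0.

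Further stellate cell genes included some that were called where the members were not. Of 15 listed, 14 were tested, and in KO NASH versus WT NASH 3 were higher and none lower. Over all genes tested edgeR called 9.65% in this comparison and 3.29% in KO NASH versus KO chow. Adamtsl2, a secreted matrix protein, was at 20.9 ± 7.38 CPM in KO NASH and 8.37 ± 2.26 CPM in WT NASH (log2 difference 1.31, SE 0.298, edgeR adjusted p = 0.00993), and all KO NASH mice lay above all WT NASH mice. The others, named after their values were seen, were Pdgfra, a receptor for platelet-derived growth factors, at 16.7 ± 6.30 against 8.82 ± 0.853 CPM, and Nes, the intermediate filament nestin, at 4.04 ± 0.873 against 1.33 ± 0.542 CPM. Once sex was a term Adamtsl2 was still called (1.36, edgeR adjusted p = 0.0410), and Pdgfra and Nes were not (edgeR adjusted p = 0.140 and 0.0564). In that fit edgeR called 2 of the 14 higher and 0 lower. The gene beside Adamtsl2 was not called without the term. In KO NASH versus KO chow 2 were higher: Adamtsl2 again (log2 difference 2.12, SE 0.306, edgeR adjusted p = 0.00191) and Cygb, the stellate cell globin cytoglobin, also named after its values were seen, at 11.2 ± 1.84 against 4.86 ± 2.18 CPM. edgeR called none for the diet in WT mice, the deletion on chow or the interaction, where 4, 4 and 1 passed an unadjusted p of 0.05, and DESeq2 called 1, 0 and 1 and voom 6, 5 and 1. The median log2 difference of the list was 0.54 for the diet in WT mice and 0.69 in KO mice, and 0.53 for the deletion on chow and 0.51 on the NASH diet.

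Other cells of the vessel wall and portal tract also express several members. Among 5 pericyte genes tested, Mcam, the adhesion molecule CD146, fell in WT NASH versus WT chow from 6.19 ± 0.615 to 3.42 ± 1.03 CPM (log2 difference -0.85, SE 0.232, edgeR adjusted p = 0.0342). The other 4 had positive log2 differences and were not called, the median of the 5 was 0.30, and with sex as a term Mcam was not called either (-0.64, edgeR adjusted p = 0.354). In KO NASH it was at 10.8 ± 2.96 CPM, above WT NASH in every mouse (log2 difference 1.66, SE 0.232, edgeR adjusted p = 0.000263, and 1.48 with an adjusted p of 0.00372 with sex as a term). Of 8 portal fibroblast genes tested, 3 were higher in KO NASH than in WT NASH and none lower, beside 9.65% of all genes called. Entpd2, an ectonucleotidase, led at 6.78 ± 3.09 against 2.14 ± 0.580 CPM (log2 difference 1.64, SE 0.367, edgeR adjusted p = 0.00906), and the others, named after their values were seen, were Eln (elastin) and Dpt (dermatopontin). The summed level of the portal fibroblast list was 29.4 to 69.4 CPM in KO NASH and 13.8 to 30.0 CPM in WT NASH, with 19.5 to 28.3 CPM for KO mice and 20.6 to 32.5 CPM for WT mice on chow. Of 9 endothelial genes 2 were higher in KO NASH than in WT NASH, with Lyve1, a hyaluronan receptor of sinusoids, at a log2 difference of 1.62 (SE 0.359, edgeR adjusted p = 0.00866). With sex as a term edgeR called 0 of the 8 portal fibroblast and 0 of the 9 endothelial genes in this comparison, with Entpd2 at 1.46 (adjusted p = 0.0681) and Lyve1 at 1.27 (adjusted p = 0.0766). Of 4 mesothelial genes tested, edgeR called none in this comparison, 1 passed an unadjusted p of 0.05, and DESeq2 called 0 and voom 1. The part of these cell types in the Acta2, Tagln and Vim values was not tested.

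Members also varied together from mouse to mouse. This was measured in the 14 libraries with a length slope above 0, as deviations of log2 CPM from the group mean, with permutation p-values from 100000 shuffles within groups and Benjamini-Hochberg adjustment over 45 pairs. Of the 45 correlations 44 were positive and 7 had an adjusted p under 0.05. The shares among pairs of other genes were not measured, so these counts cannot be called particular to the markers. The length slope still varied here: in WT NASH it was 0.0025 and 0.0029 in replicates 2 and 5 and 0.15 and 0.13 in replicates 1 and 3. Lum, Dcn and Bgn were higher in replicates 2 and 5 than in 1 and 3. In KO NASH Lum was instead highest in replicates 1 and 5, with the largest slopes (0.17 and 0.19). The part of the slope in the correlations was not tested. The contractile pair, Acta2 and Tagln, had a Pearson's r of 0.83 (permutation p = 0.00174, adjusted p = 0.0261) and a Spearman's rho of 0.85 (permutation p = 0.00287, adjusted p = 0.0411), and r was 0.71 without the 2 mice farthest from the median. Tagln and Vim had an r of 0.87 (permutation p = 0.00099, adjusted p = 0.0223) and a rho of 0.87 (permutation p = 0.00165, adjusted p = 0.0371), and r was 0.82 without the 2 farthest. Among the proteoglycans, Lum and Dcn had an r of 0.89 (permutation p = 0.00379, adjusted p = 0.0341) and a rho of 0.82 (permutation p = 0.00526, adjusted p = 0.0411), with 0.87 after leaving out 2. Dcn and Bgn had an r of 0.80 (permutation p = 0.00495, adjusted p = 0.0371) and a rho of 0.73 (permutation p = 0.00869, adjusted p = 0.0559), with 0.76 after leaving out 2. Without KO NASH replicate 5, whose counts were the closest to those of another library (replicate 1), these 4 r values were 0.84, 0.87, 0.89 and 0.81. Permutation p-values were computed only with all 14 libraries, so they treat this close pair as separate mice. The other 3 pairs past the threshold were Lum with Bgn, Reln with Rgs5 and Des with Bgn. The lowest value was that of Tagln and Rgs5, an r of -0.11 (permutation p = 0.773, adjusted p = 0.790) with a rho of 0.01 (permutation p = 0.990, adjusted p = 1.0).

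**Figure D4:**
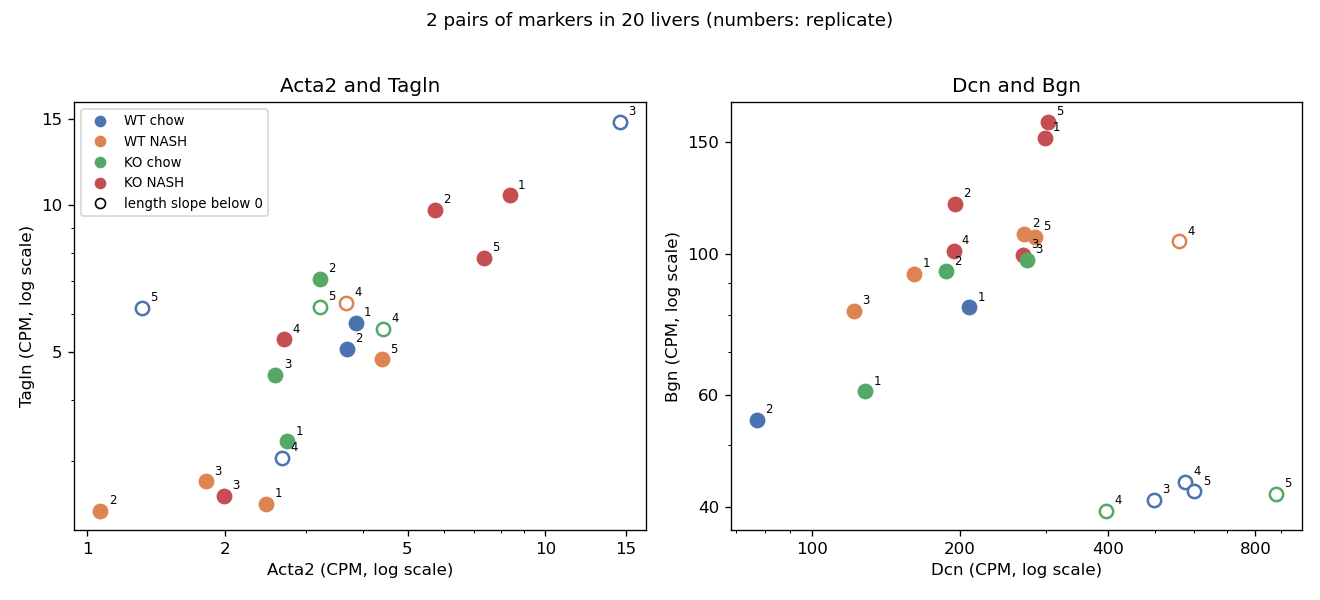
Acta2 against Tagln and Dcn against Bgn in 20 livers (CPM, log axes); numbers are replicates and open points the libraries with a length slope below 0. WT chow replicate 3 is at the top right for the contractile pair, and the open points at 397 to 881 CPM of Dcn lie apart from the filled ones, 5 of them at 39.4 to 43.8 CPM of Bgn.

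The genes whose deviations from the group mean were most like those of 3 members were sought among 9522 others with a mean of at least 5 CPM, over all 20 libraries. For Lrat they were Colec10 (r = 0.84), Bmp5 (r = 0.82), which is also in the stellate cell list, and Pam (r = 0.80). For Dcn they were Ms4a4d (r = 0.96), Pam (r = 0.94) and 4933434E20Rik (r = 0.94). For Acta2 they were Slc38a2 (r = 0.70), Rbms2 (r = 0.69) and Epc2 (r = 0.63). These are descriptions, since the libraries share the split by length slope. In the 14 libraries with a slope above 0 the same 9 values ran from 0.59 to 0.88.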

How the data were processed

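RNA-seq of 20 mouse livers was used. The deposited table holds raw counts per gene symbol, 1 column per library. The submitters' processing notes name HISAT2 2.0.4 and GRCm38, without their role; the program that counted reads, its annotation and its use of strand were not given in the sources used here. Columns that name the diet HFD were taken as the NASH groups, since the remaining columns name chow. The members, the lists and the rules were chosen with earlier results of these data known.

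Counts were fitted in R 4.3.3 with edgeR 4.0.16: filterByExpr (minimum count 10), TMM scaling, 4 group means over 20 libraries, the quasi-likelihood F test and Benjamini-Hochberg adjustment over 14440 genes. The procedure was tested on simulated data. Sex was read as male from 100 or more counts summed over 4 Y-linked genes. Length and GC slopes were fitted per library over 9754 genes whose mean log2 CPM reached 2, with lengths, GC content and coordinates from GENCODE M21. Promoters came from RefSeq (GRCm38.p6). Beside the 10 members, each of 16 marker lists gave the called gene of smallest p in each comparison where edgeR called any. The 3 genes most like each of Acta2, Lrat and Dcn were also named. Other list genes, among them Pdgfra and the low adipose and pancreas genes, were named after their values were seen.

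Alternatives were RLE scaling, TMM without the 20 most abundant genes, no filter, a mean of at least 5 CPM, DESeq2 1.42.0, limma 3.58.1 voom with quality weights, the compared groups alone, a replicate block, sex and length slope as terms, each sex alone, and leaving out each library. Those added after seeing the data were the GC slope as a term, the 14 and the 6 libraries of each length slope sign, and KO NASH replicates 1 and 5, the closest pair, summed. Intervals cover the spread between mice, which was widest for Lum, Dcn and Acta2.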

Additional observations from a re-analysis of the deposited data

Results flagged for a closer look

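3 values stood far from the other 4 of their group by Dixon's test, which was applied to 40 groups of 5 and flags about 1 group in 20 by chance. Acta2 in WT chow replicate 3 was at 14.5 CPM, with the other WT chow mice at 1.32 to 3.85 CPM. Tagln in the same liver was at 14.8 CPM, with the others at 3.04 to 6.17 CPM. Lum in KO chow replicate 5 was at 60.2 CPM, with the others at 6.76 to 14.6 CPM. Both livers are among the 6 with a length slope below 0.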

How the results depend on the processing

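Of 1770 combinations of a member's log2 difference and an alternative, 161 differed in sign from the value given, 27 gained a call and 22 lost one. Lum in KO NASH versus KO chow was the single called value that changed sign, from -0.11 to 1.53 with the GC slope as a term. The 1 member called in WT NASH versus WT chow became 0 without the low-count filter, with only the groups compared, with sex or with sex and length slope as terms, in males alone, with KO NASH replicates 1 and 5 summed and in either the 14 or the 6 libraries, and 6 with voom (40.6% of all genes). For KO chow versus WT chow 0 became 4 with voom (40.4% of all genes) and 1 with the length slope (11.5%) or the GC slope (10%). For KO NASH versus WT NASH 0 became 1 with voom (23.8%), 1 in the 14 libraries (20.3%) and 3 with the GC slope (14.3%). For KO NASH versus KO chow 0 became 2 with voom (12.7%) and 1 with the filter at 5 CPM (3.29%), DESeq2 (9.02%), the length slope (6.32%), both terms (9.35%) or the GC slope (5.22%). The interaction went from 0 to 1 with voom (13.5%). Leaving out 1 library gave 0 to 1 in WT NASH versus WT chow (0 in 14 of 20) and in KO NASH versus KO chow (1 in 4 of 20), and 0 in the other 3 comparisons. Of the list genes named, calls lost without 1 library were those of Pdgfra and Timd4 (8 of 20 fits), Nes and Cd3g (7), Dpt (6), Cygb (5), Tpm1 in KO NASH versus WT NASH (4), Cd68 (8) and Mcam (6) in WT NASH versus WT chow, and Cd3e (1, without WT NASH replicate 2). The causes were not tested. Replicate numbers did not pair the mice (13 of 30 same-number pairs correlated above 0.1, from -0.41 to 0.52). The replicate block gave 1, 0, 0, 0 and 0 members, with Bgn at 0.94 (edgeR adjusted p = 0.0414).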

Other observations

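Genes of retinoid storage and use, the pathway of Lrat, moved in both directions. Of 12 listed, 10 were tested. In KO chow versus WT chow 3 were higher and 1 lower, led by Dgat1, an acyltransferase of triglyceride and retinyl ester synthesis, at 48.9 ± 11.8 against 26.9 ± 1.57 CPM (log2 difference 0.86, SE 0.163, edgeR adjusted p = 0.0045). Dgat1 fell on the NASH diet in WT (log2 difference -0.89, edgeR adjusted p = 0.00329) and in KO (-1.08, edgeR adjusted p = 0.00283), with no overlap between the groups in either; with sex as a term the WT call was lost (-0.72, edgeR adjusted p = 0.111) and the KO call was not (adjusted p = 0.00207). In KO NASH versus WT NASH 2 were higher and 2 lower, and with sex as a term 0 were higher and 1 lower. Cyp26a1, which degrades retinoic acid, was at 0.365 ± 0.232 CPM in KO NASH and 4.84 ± 2.43 CPM in WT NASH (log2 difference -3.65, SE 0.779, edgeR adjusted p = 0.00649, and -3.46 with an adjusted p of 0.0201 with sex as a term). In WT NASH versus WT chow 2 were lower and in KO NASH versus KO chow 1 was. With sex as a term edgeR called 0 for the diet in WT, and 1 higher and 1 lower in KO. For KO chow versus WT chow the term left 3 higher and 1 lower. Over all genes tested edgeR called 5.53% in KO chow versus WT chow and 9.65% in KO NASH versus WT NASH. For the diet it called 5.93% in WT and 3.29% in KO. In the interaction edgeR called none, and 0 passed an unadjusted p of 0.05; DESeq2 called 0 and voom 3. Hepatocytes express several of these genes too, and no part of the values can be assigned to stellate cells.

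Among lists of other cells, Cfd, the adipocyte gene for complement factor D, was the 1 adipose gene of 5 that was tested, and it was higher in KO NASH (16.3 ± 21.4 CPM) than in WT NASH (0.0129 ± 0.0289 CPM; edgeR adjusted p = 0.000687). The others were too low to test: Adipoq was at 0.0703 CPM in KO NASH and 0.394 CPM in WT NASH and Plin1 at 0.0256 and 0.259 CPM, the opposite order, Retn was at 0.0717 and 0 CPM, and Lep was at 0 in all 20 libraries. Timd4, a macrophage gene, was lower in KO NASH than in WT NASH at a log2 difference of -1.41 (edgeR adjusted p = 0.0408), and Cd3g, a T cell receptor subunit, at -1.81 (edgeR adjusted p = 0.0371). With sex as a term neither was called (edgeR adjusted p = 0.0504 and 0.0718). Hbb-bs, a red blood cell globin, was lower on the NASH diet in WT (log2 difference -2.31, edgeR adjusted p = 0.00311) and in KO (-2.57, edgeR adjusted p = 0.00468). Sox9, a transcription factor of cholangiocytes, was higher in KO NASH than in KO chow (log2 difference 1.82, edgeR adjusted p = 0.0326), a call lost in 6 of 20 fits that left out 1 library. Cela1, a pancreatic elastase gene, was lower in KO NASH than in WT NASH (log2 difference -3.15, edgeR adjusted p = 0.00288). WT NASH held 11.7 to 107 CPM, and without its replicate 4 the log2 difference was -2.02, still called. Cela1 was the 1 pancreas gene of 5 that was tested. The others were too low to test and had the opposite order. Ctrb1 was at 0.0691 CPM in KO NASH and 0.0121 CPM in WT NASH. Pnlip, Cpa1 and Cel were at 0.0352, 0.00907 and 0.00853 CPM in KO NASH and at 0 CPM in WT NASH.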
